A study of Homo sapiens with 6 samples.

Results

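H3K4me3, trimethylation of lysine 4 on histone H3, is placed by SET1 and MLL methyltransferase complexes at active and poised promoters, where it usually covers a CpG-rich stretch on both sides of the transcription start. Short, weak H3K4me3 peaks are known from promoters poor in CpG, from enhancers and from starts of noncoding transcripts. H3K27me3, trimethylation of lysine 27, is placed by Polycomb repressive complex 2, often over the same CpG-rich promoters in progenitor cells. The regions described here carried a single short stretch of H3K4me3, found in both culture conditions, with no H3K27me3 peak nearby.

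The cells were neural progenitors derived from the human embryonic stem cell line H9 and harvested at day 11 on the way to midbrain dopamine neurons. All cultures started in SHH C25II, LDN, SB431542 and 0.7 µM CHIR99021, an inhibitor of the kinase GSK3 that activates canonical WNT signalling. SHH, LDN and SB431542 were withdrawn on day 7. Boost-Chir cultures received 7.5 µM CHIR99021 from day 4 to day 10. The labels list 0.7 µM among the concentrations used in that window and do not tie one to Low-Chir. From day 10 the medium held 3 µM CHIR99021 with BDNF, GDNF, ascorbic acid, TGFβ3 and dibutyryl cAMP. ChIP-seq (chromatin immunoprecipitation followed by sequencing) was done once per mark and condition on bulk cultures of 1 cell line. No difference below therefore has a replicate check, and a value can reflect the mix of cells as well as their chromatin. Peaks were not assigned to genes, because the gene table used here follows another build than the lists. The labelled cell type was for the same reason not checked against its markers. Positions are on hg19, counted from 1.

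Narrow loci were chosen from the H3K4me3 and H3K27me3 peak lists themselves. H3K4me3 peaks of both conditions on chromosomes 1 to 22 were joined within 3 kb into 15988 loci, of which 13950 held a peak in both lists. Of these, 1108 were under 1 kb from first start to last end, and 552 of the 1108 had no H3K27me3 peak of either condition within 5 kb. The 552 narrow loci made up 3.45% of all loci (exact 95% binomial interval 3.17 to 3.75, counting error only) and 3.96% of the loci of both lists (3.64 to 4.29). Because the rule used presence, length and H3K27me3, those properties are given as a description only. A short locus also tends to be a weak one, so strength is not independent of the rule either.

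Most short H3K27me3-free H3K4me3 loci were called in 1 list alone. A locus missing from a list fell below the threshold of that list, which is not known, and need not lack the mark. Counting those of 1 list alone, 1760 loci were under 1 kb and free of H3K27me3, and the 552 were 31.4% of them (29.2 to 33.6). The other loci comprised 381 in the Low-Chir list alone and 827 in the Boost-Chir list alone. Among H3K27me3-free loci of 2 to under 4 kb, 97.6% (97.0 to 98.2) were in both lists. The length of a locus of both lists spans the peaks of both, so these shares rest on unlike lengths. Loci of 1 list alone were weaker and shorter than the narrow loci of both lists. Their median was 12 reads at the summit and 234 bp in Low-Chir, and 14 reads and 249 bp in Boost-Chir. The narrow loci of both lists had medians of 17 and 19 reads, and their peaks covered a median of 402 bp (Low-Chir) and 464 bp (Boost-Chir). Their median length of 660 bp spans the peaks of both lists, so it is not a like measure. Depth in Boost-Chir was 1.21 times that in Low-Chir, and its part in the 2 numbers was not tested.

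Narrow loci ranged from 211 to 999 bp, with quartiles of 462 and 827 bp. Not all were single peaks. There were 419 (75.9%) with 1 peak in each list and 133 (24.1%) with more than 1 peak in at least 1 list. At 71 loci 2 Low-Chir peaks stood against 1 Boost-Chir peak, and at 45 loci 1 Low-Chir peak stood against 2 Boost-Chir peaks. Peaks of the 2 conditions overlapped by at least 1 bp at 516 loci (93.5%). At the other 36, each with 1 peak per list, the peaks lay side by side without touching. Among the 419 loci with 1 peak in each list, the Low-Chir peak lay wholly inside the Boost-Chir peak at 138 (32.9%). The reverse held at 49 (11.7%), and the edges were staggered at 196 (46.8%).

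The length under peaks was more often greater than smaller in Boost-Chir at these loci, within the limit that the rule sets on both. The covered length had a median of 402 bp (Low-Chir) and 464 bp (Boost-Chir), and the median ratio was 1.15. Boost-Chir was longer at 348 loci, shorter at 201 and equal at 3. At H3K27me3-free loci of 4 kb or more the median ratio was 1.32, with 5560 of 5968 longer in Boost-Chir. Narrow loci that had H3K27me3 within 5 kb had a median ratio of 1.06, with 298 of 556 longer. Covered length was not adjusted for depth, which was 1.21 times as high in Boost-Chir, and the part of depth in these ratios was not tested.

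Enrichment at the narrow loci was modest, and few reached the upper part of either list. Fold enrichment, the authors' value over the local background, had a median of 4.98 in Low-Chir (lowest 2.63, highest 13.1) and 4.81 in Boost-Chir (2.19 to 13.0). The strongest peak of the median narrow locus ranked above 48.2% of all Low-Chir peaks by −log10 q and above 55.5% of Boost-Chir peaks. In the top 25% of peaks there were 14 narrow loci by the Low-Chir list, 17 by the Boost-Chir list and 6 by both. In the bottom 25% there were 112 and 84, with 36 in both. The strongest peaks of narrow loci were thus mostly mid-list among all peaks, of which a longer locus can hold several. Locus against locus they were weak. Their median −log10 q was 6.98 in Low-Chir and 7.33 in Boost-Chir, against 21.1 and 30.1 over all loci of both lists. The rule also asks for a peak in both lists, so the rank is not independent of it.

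How often a locus was narrow fell steeply with its strength. Strength here is the geometric mean, over both conditions, of reads above background at the summit, at Low-Chir depth. Of H3K27me3-free loci of both lists at 8 to under 12 such reads, 191 of 285 (67.0%) were narrow. The share was 203 of 476 (42.6%) at 12 to under 16 reads and 98 of 447 (21.9%) at 16 to under 20. It was 52 of 1849 (2.81%) at 20 to under 30, and 4 of 6822 (0.0586%) at 30 or more. A strong summit on a stretch of under 1 kb was therefore rare, and the loci that had one are described next.

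Ordered by fold enrichment, taking the lower of both conditions, the first narrow locus lay on chromosome 19 at 39321514 to 39322475. It had 41 (Low-Chir) and 45 (Boost-Chir) reads at the summit, with 13.1-fold and 12.5-fold enrichment, and its summits were 42 bp apart. Its Low-Chir peak ranked above 95.5% of that list. Per unit of depth the Boost-Chir reads were 0.908 times those of Low-Chir. The exact 95% counting interval of 0.582 to 1.42 includes equal signal, but it treats reads as independent. The second, on chromosome 12 at 125271337 to 125272200, had 35 and 38 reads in Low-Chir and Boost-Chir and summits 7 bp apart. The third, on chromosome 6 at 112364127 to 112364955, had 38 and 44 reads, and peaks there covered 497 bp (Low-Chir) and 829 bp (Boost-Chir). Both had counting intervals that include equal signal.

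The narrowest of the 8 loci highest in fold was on chromosome 19 at 49298510 to 49298835. Its whole locus measured 326 bp, with 31 reads in Low-Chir and 33 in Boost-Chir, or 20 to under 30 above background in the mean of both. H3K27me3-free loci of that strength had a median length of 3261 bp. A locus on chromosome 1 at 204776167 to 204776517 was of the same kind, with 351 bp and 29 and 34 reads. Chromosome 10 at 31891525 to 31892446 had 30 and 38 reads and lay 155 kb from the next H3K4me3 locus and 1542 kb from the next H3K27me3 peak. On chromosome 9, the locus at 42250774 to 42251609 had 26 and 31 reads and its next H3K4me3 locus at 294 kb. In these loci the counting interval of the read ratio included equal signal.

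The fifth by fold had the greatest difference between conditions among these 8. It lay on chromosome 9 at 139257705 to 139258324 and had 27 reads in Low-Chir and 59 in Boost-Chir. Enrichment was 8.72-fold and 13.0-fold, and the peak ranked above 74.0% of peaks listed for Low-Chir and 96.0% of those listed for Boost-Chir. The read ratio per depth, with no background taken off, was 1.81, with a counting interval of 1.13 to 2.97. Peaks covered 434 bp (Low-Chir) and 620 bp (Boost-Chir), and the summits were 17 bp apart.

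**Figure D1:**
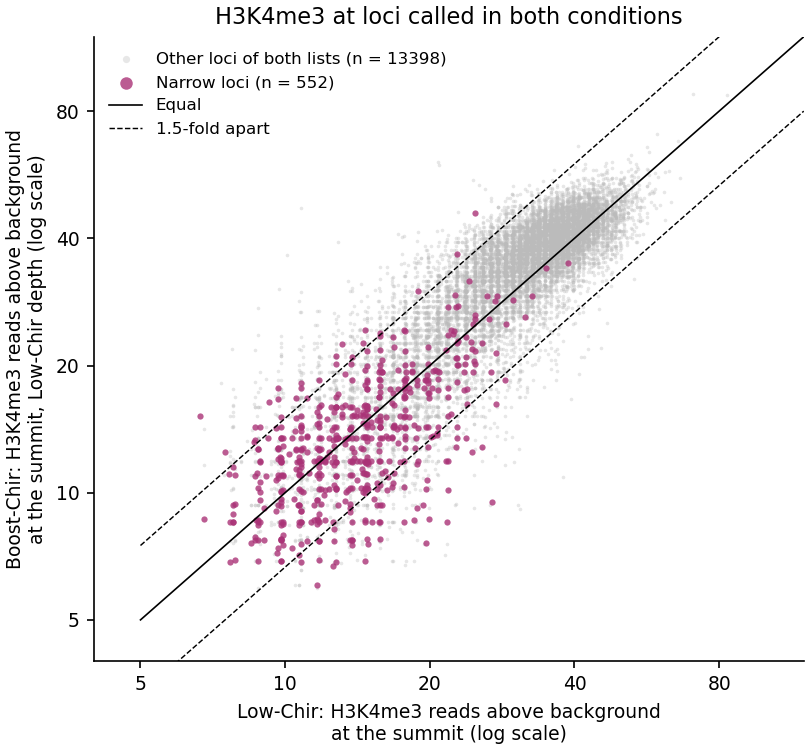
H3K4me3 reads above background at the strongest summit of each locus, Low-Chir on the x axis and Boost-Chir, divided by its relative depth, on the y axis, both on log scales. Purple points are the 552 narrow loci and grey points the other loci of both lists, with lines for equal signal and for a 1.5-fold difference; narrow loci fill the low end, and 25 lie on or above the upper dashed line and 61 on or below the lower one.

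H3K4me3 per unit of depth at the narrow loci was slightly lower in Boost-Chir, against the direction at longer loci. The ratio compares reads above background at the strongest summit of each condition, divided by relative depth. Reads above background had a median of 13.9 in Low-Chir and 13.2 in Boost-Chir at Low-Chir depth. The median ratio of Boost-Chir over Low-Chir was 0.953, with an exact order-statistic 95% interval of 0.925 to 0.978 and quartiles of 0.789 and 1.12. Over all 13950 loci of both lists the median was 1.09, a general shift of 0.12 on the log2 scale. Relative to that shift the narrow loci had a median of 0.878. Of the narrow loci 235 (42.6%) had a ratio above 1, against 66.1% of all loci.

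This lower value depended on how narrow was defined. With the 1 kb limit on the Low-Chir peaks alone, 1011 loci qualified, with a median ratio of 1.02 and 53.1% above 1. With the limit on the Boost-Chir peaks alone, 725 loci had a median of 0.949. Loci that were short in Low-Chir and longer in Boost-Chir are left out by the joint limit, so the side of 1 on which the narrow loci fell is set in part by the rule. Both values stayed below the 1.09 of all loci.

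Most narrow loci stayed within 1.5-fold between conditions, though by the depth-adjusted ratio a larger share passed it than over all loci. A ratio of at least 1.5 was reached by 25 (4.53%, 2.95 to 6.61), against 5.30% of all loci. A ratio of at most 1/1.5 was reached by 61 (11.1%, 8.56 to 14.0), against 3.03% of all loci. Under this rule and with depth adjusted, the higher ratio was about as frequent as over all loci. The lower ratio was more frequent, at loci with fewer reads. At H3K27me3-free loci of 1 to under 2 kb the shares were 9.32% higher and 5.93% lower. At loci under 1 kb with H3K27me3 within 5 kb they were 5.58% and 14.6%. Together the higher and lower narrow loci were 86 of 552 (15.6%), against 8.33% of all loci. The 25 had a median of 14 reads (Low-Chir) and 25 (Boost-Chir), and the 61 had 19 and 14. With the general shift divided out the counts were 12 and 97, so higher loci made up 11.0% of those past 1.5-fold in place of 29.1%. Under that scaling 2.61% of all loci were at least 1.5-fold higher and 4.95% at least 1.5-fold lower. With the length limit on the Low-Chir peaks alone the balance turned round, with 112 higher and 81 lower of 1011 loci. By the authors' folds, with no depth adjustment, 28 of the 552 narrow loci were higher and 56 lower. Over all loci the shares by those folds were 12.2% higher and 5.23% lower, so the comparison with all loci depended on the scaling.

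The scatter among narrow loci was smaller than independent counting error would give. The SD of the log2 ratio was 0.41 over the 552 loci. Independent Poisson counts of the observed size would give 0.59, taken as the median over the loci. For H3K27me3-free loci of 4 kb or more, these values were 0.24 and 0.33. A summit is a maximum over overlapping reads and not a free count, and the reads are not known to be independent molecules. The rule also leaves out loci called in 1 list alone and loci past the length limit in 1 condition. The part of that selection in the SD was not tested. The difference at any single narrow locus is therefore given as a description.

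The loci with the highest ratios rested on few Low-Chir reads, apart from the chromosome 9 locus at 139257705 given above. They were taken from 368 narrow loci at or above the narrow-locus median of −log10 q in at least 1 list. The highest lay on chromosome 11 at 59304901 to 59305408, with 9 reads in Low-Chir and 21 in Boost-Chir, a depth-adjusted ratio of 2.28. The Low-Chir peak there ranked above only 0.694% of its list. Chromosome 7 at 19234181 to 19234800 had 12 and 24 reads, and its covered length was 234 bp and 620 bp. Chromosome 4 at 159131760 to 159132696 also had 12 and 24 reads, with 2 peaks in each list. Chromosome 14 at 65006219 to 65007060 had 12 and 23 reads and its next H3K27me3 peak at 9.96 kb. The counting intervals of the read ratio per depth at these 4 included equal signal. The widest was 0.848 to 4.79 at the first, for a read ratio of 1.93.

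The 5 named loci with the lowest ratios had more reads in Low-Chir, and most had a raised local background in Boost-Chir. That did not hold for all 61 lower loci. Their median Boost-Chir background was 2.72 reads, against 2.89 at the 25 higher loci and 2.91 at the other 466. Chromosome 2 at 1858792 to 1859182 had 30 reads in Low-Chir and 16 in Boost-Chir, a ratio of 0.354. The read ratio per depth was 0.441, with a counting interval of 0.225 to 0.836. Its background was 3.12 reads (Low-Chir) and 4.51 reads (Boost-Chir). Chromosome 9 at 107753590 to 107754543 had 24 and 13 reads and a ratio of 0.393. Its read ratio per depth was 0.448, with an interval of 0.210 to 0.916. Its background was close to the genome-wide level in both, at 2.32 and 2.71 reads, but the summits were 461 bp apart and Boost-Chir had 2 peaks there.

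For the other 3 the interval reached 1.01 or more. The intervals at the highest and lowest ratios, including that of the chromosome 9 locus with 27 and 59 reads, belong to loci picked for their extreme ratios out of 368, with no allowance for that choice, so they give the size of the counting error and are no test of a difference. Chromosome 1 at 171283300 to 171283961 had 22 and 13 reads. Chromosome 6 at 32977100 to 32977698 had 23 and 15 reads, and its covered length was 493 bp and 214 bp. Chromosome 9 at 21031353 to 21032142 had 21 and 14 reads, with 587 bp and 269 bp covered. At these 3 loci the Boost-Chir background, 3.79, 4.51 and 3.61 reads, was above the genome-wide 2.67, and its part in the ratio was not tested.

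**Figure D2:**
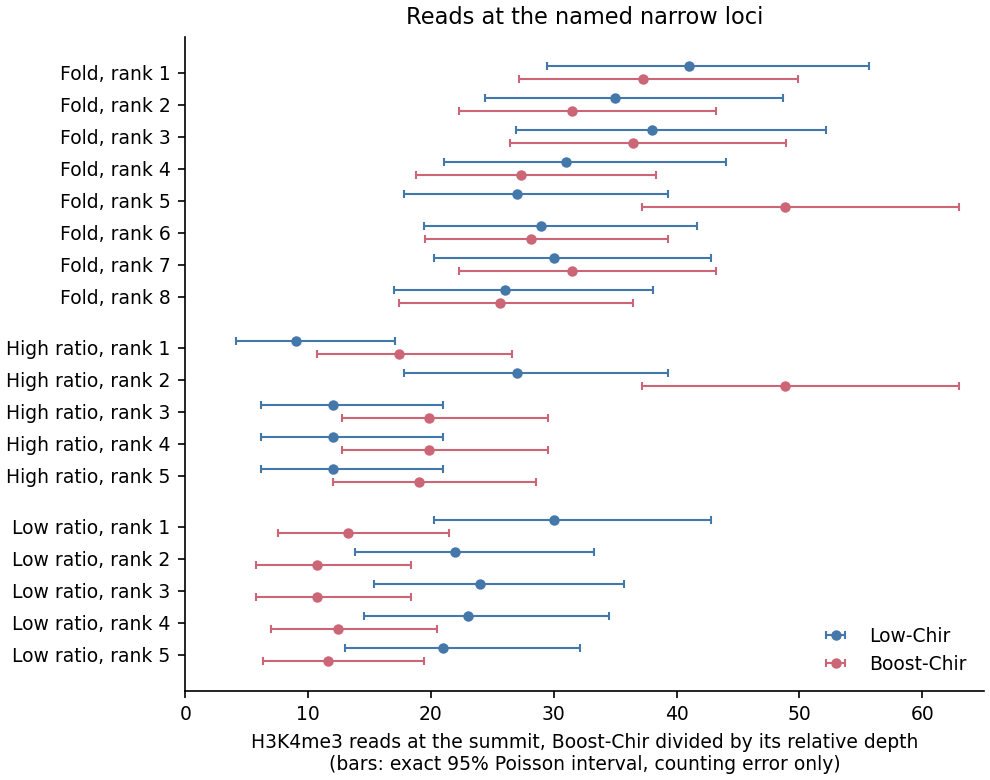
H3K4me3 reads at the summit (x axis) of the 8 narrow loci with the highest fold enrichment and of the 5 each with the highest and lowest depth-adjusted ratio, in the order of the text; fold rank 5 and high ratio rank 2 are the same locus. Blue is Low-Chir and red is Boost-Chir divided by its relative depth, and bars are exact 95% Poisson intervals; the intervals of the conditions overlap at every locus shown, least at low ratio rank 1 and at the chromosome 9 locus with 27 and 59 reads.

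The ratio of Boost-Chir over Low-Chir followed the length of the locus. Among H3K27me3-free loci of both lists the median was 0.921 under 500 bp, 0.961 from 500 to under 750 bp and 0.960 from 750 bp to under 1 kb. It was 0.998 from 1 to under 1.5 kb, 1.07 from 1.5 to under 2 kb and 1.13 from 3 to under 4 kb, and then 1.10 at 6 kb or more. Loci under 1 kb that had H3K27me3 within 5 kb had a median of 0.910 (0.875 to 0.943), whose interval overlaps that of the narrow loci.

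The order by length was also present among loci of like strength, apart from the weakest. Among H3K27me3-free loci of 20 to under 30 reads above background, the median ratio was 0.955 for the 52 narrow loci. It was 1.06 for 304 loci of 1 to under 2 kb and 1.17 for 1493 of 2 kb or more. At 12 to under 16 reads the values were 0.934, 1.01 and 1.10, over 203, 179 and 94 loci. At 8 to under 12 reads the order was not the same, with 0.947 for 191 narrow loci, 0.882 for 65 loci of 1 to under 2 kb and 1.05 for 29 longer ones. Length was measured over both conditions, so a locus that gained signal in Boost-Chir could also gain length.

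**Figure D3:**
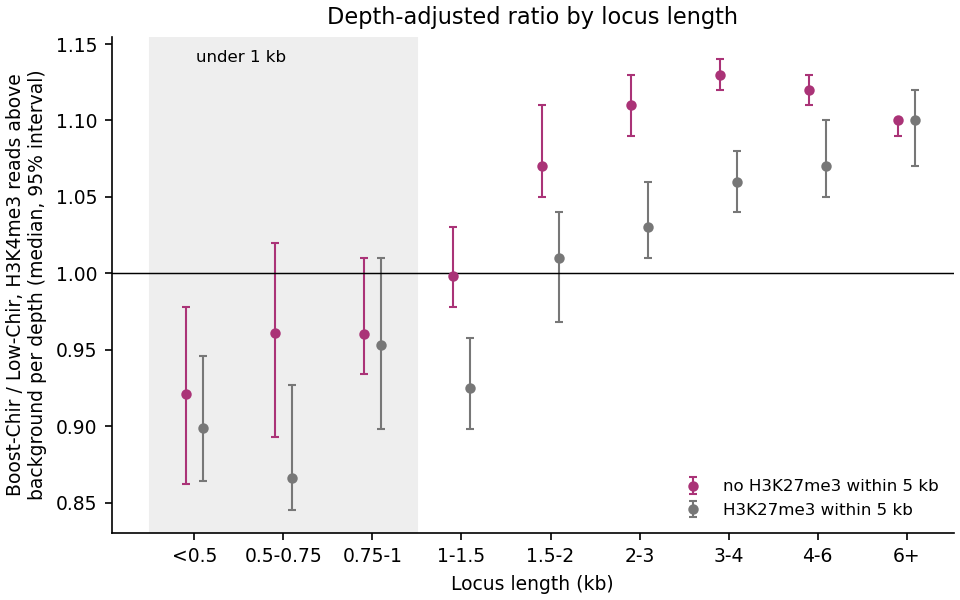
Median depth-adjusted ratio of Boost-Chir over Low-Chir (y axis) by locus length in kb (x axis) for loci of both lists, with exact order-statistic 95% intervals as bars; purple is without and grey with H3K27me3 within 5 kb, and the shaded bins are under 1 kb. Medians lie below 1 in all 3 shaded bins of both kinds and reach 1.13 at 3 to under 4 kb without H3K27me3.

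Summits of the 2 conditions lay close together at narrow loci, closest at the strong ones. The distance between the strongest summits had a median of 84 bp (quartiles 31.8 and 224 bp, highest 771 bp), and 308 loci (55.8%) had them within 100 bp. Loci under 1 kb with H3K27me3 nearby, which share the length limit, had a median of 108 bp and 47.5% within 100 bp. H3K27me3-free loci of 4 kb or more, which leave more room, had a median of 270 bp. Among narrow loci split into 3 equal groups of 184 by strength, the median distance was 152 bp in the weakest, 84 bp in the middle and 39 bp in the strongest group. The share within 100 bp was 37.5%, 57.1% and 72.8%. The ratio between conditions hardly moved over the same groups, at 0.940, 0.951 and 0.959.

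The 3 greatest displacements were at loci of 839 to 968 bp. On chromosome 20 at 22410358 to 22411196 a peak of 200 bp in each list stood at opposite ends, with summits 771 bp apart and 12 and 16 reads. Chromosome 17 at 39822411 to 39823378 had 13 reads in each condition and summits 757 bp apart. Chromosome 9 at 45441593 to 45442538 had 24 and 17 reads and summits 718 bp apart, with 2 Boost-Chir peaks.

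**Figure D4:**
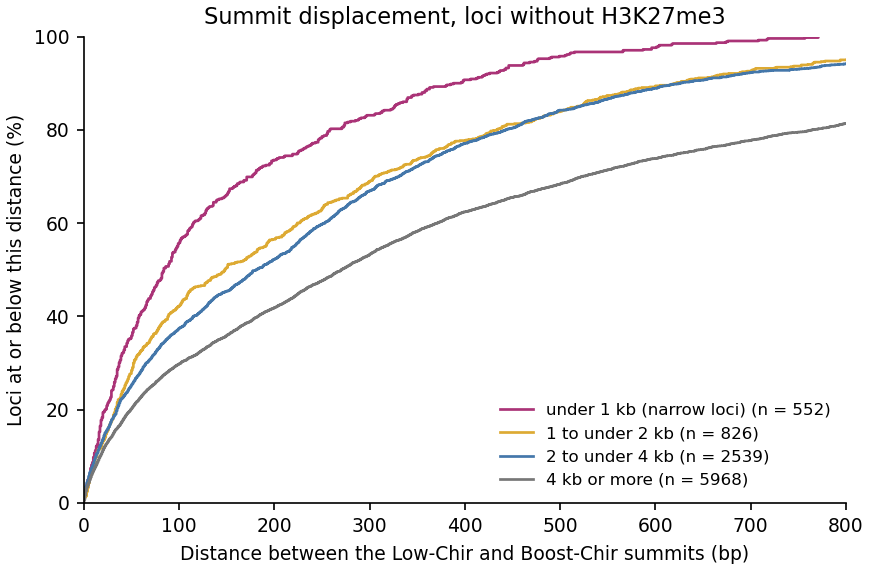
Cumulative share of H3K27me3-free loci of both lists (y axis, %) by the distance in bp between the strongest Low-Chir and Boost-Chir summits (x axis), 1 line per length class. The line of the narrow loci is the steepest, with 55.8% within 100 bp against 29.8% at 4 kb or more, and it must end under 1 kb because the locus does.

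Narrow loci were spread along the genome much as other H3K4me3 loci were. The gap to the next H3K4me3 locus had a median of 32.2 kb, against 35.6 kb over all loci of both lists. It was at most 10 kb at 97 narrow loci (17.6%, against 18.1%) and over 100 kb at 124 (22.5%, against 20.8%). To the next locus of at least 2 kb the median gap was 45.5 kb, and 56 narrow loci (10.1%) had one within 10 kb. H3K27me3-free loci of 4 kb or more had a median of 49.3 kb to the next other such locus and 10.5% within 10 kb. Narrow loci over 200 kb from a locus of at least 2 kb numbered 83 (15.0%), against 10.9% of those of 4 kb or more. Of the 97 with a neighbour within 10 kb, the nearest was 2 kb or longer at 53 and under 1 kb at 29, of which 18 were in 1 list alone.

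The most isolated narrow loci differed in strength. On chromosome 2 at 77748365 to 77748931 the next H3K4me3 locus was 1471 kb away. That locus was weak, with 13 and 15 reads and 3.40-fold and 2.50-fold enrichment. Its Boost-Chir background was 5.41 reads, over 2 times the genome-wide 2.67. Chromosome 12 at 91775294 to 91775986 was 754 kb from the next H3K4me3 locus and 2190 kb from H3K27me3. It had 26 and 31 reads, summits 6 bp apart and a ratio of 0.997. Chromosome 4 at 21305633 to 21306433 had 26 and 24 reads at a distance of 600 kb. Chromosome 6 at 121069541 to 121069966 had 14 and 19 reads at 583 kb, with 226 bp and 416 bp covered. Of the 4, the chromosome 12 locus had the smallest summit distance and the ratio nearest 1.

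Few narrow loci had another narrow locus within 100 kb, and this was not compared with as many loci placed at random. The median gap between neighbouring narrow loci was 2579 kb, and 26 pairs were within 100 kb and 4 within 20 kb. The closest pair was on chromosome 18 at 74230507 to 74231222 and 74236854 to 74237340, 5631 bp apart. Its members had 18 and 24 reads, and 17 and 23 reads, in Low-Chir and Boost-Chir, and both had a ratio of 1.10. On chromosome 16 at 57513587 to 57513836 and 57519581 to 57520568 the ratios were 0.823 and 1.35. On chromosome 9 at 130497074 to 130497682 and 130504438 to 130504910 they were 1.32 and 1.02. The pairs were chosen after their values were seen.

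By chromosome, narrow loci were 5.58% (5.14 to 6.06) of the 9885 H3K27me3-free loci of both lists. The share was highest on chromosome 6, with 43 of 537 loci (8.01%, 5.86 to 10.6), and lowest on chromosome 21, with 3 of 93 (3.23%, 0.670 to 9.14). Chromosome 6 was the only one whose interval lay above the share of all chromosomes together, and with 22 intervals at 95% about 1 outside is usual. Chromosome 16, with 16 of 435 (3.68%, 2.12 to 5.90), had the lowest share among chromosomes with over 100 such loci.

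**Figure D5:**
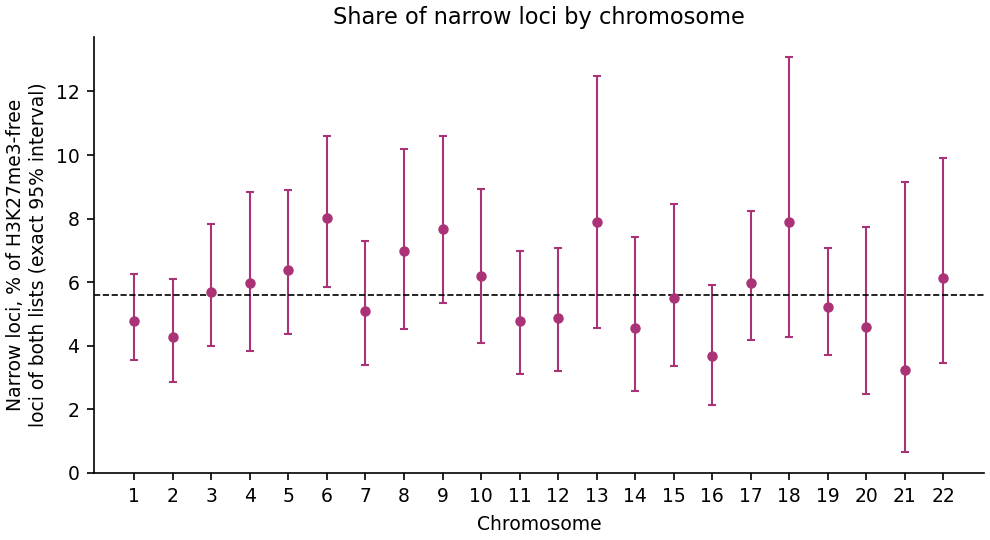
Narrow loci as a percentage of the H3K27me3-free H3K4me3 loci of both lists (y axis) on each of chromosomes 1 to 22 (x axis), with exact 95% binomial intervals as bars and the share over all chromosomes, 5.58%, as a dashed line. The interval of every chromosome except 6 includes the dashed line.

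Distance to H3K27me3 beyond the 5 kb limit was like that of longer H3K27me3-free loci. The median gap to the next H3K27me3 peak of either condition was 136 kb for narrow loci and 110 kb for loci of 1 to under 2 kb. It was 127 kb for loci of 2 to under 4 kb and 139 kb for those of 4 kb or more. Between 5 and 20 kb there were 60 narrow loci (10.9%), against 10.9% of loci of 1 to under 2 kb and 8.21% of those of 4 kb or more. Over 1 Mb there were 28 narrow loci (5.07%), against 3.92% of loci of 4 kb or more. Just inside the limit, chromosome 20 at 56811705 to 56812244 was 5455 bp and chromosome 1 at 223315836 to 223316772 was 6283 bp from H3K27me3. They had 15 and 20, and 19 and 21 reads. Just outside, chromosome 1 at 248100531 to 248100750 was 4737 bp and chromosome 10 at 134062227 to 134062609 was 4572 bp away. These had 15 and 16, and 17 and 16 reads.

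At the length limit, the 2 longest narrow loci measured 999 bp. Chromosome 8 at 9007215 to 9008213 had 22 and 30 reads, and chromosome 9 at 90690527 to 90691525 had 25 and 20. The 2 shortest loci outside measured 1000 bp. Chromosome 4 at 83706093 to 83707092 had 14 and 22 reads and chromosome 5 at 113028043 to 113029042 had 13 and 24. Loci on both sides of the limit overlapped in strength.

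Local background, solved from each peak's fold and p-value, was not higher at narrow loci than over all loci of both lists. The rule asks for a called peak in both lists, and a call depends on background, so background is not independent of the rule. Background was at the genome-wide level at 36.4% of narrow loci in Low-Chir and 24.5% in Boost-Chir, against 28.5% and 20.5% of all loci. At H3K27me3-free loci of 1 to under 2 kb these shares were 34.4% and 25.8%, much as at narrow loci. It reached 2 times that level at 20 narrow loci (3.62%) in Low-Chir and 29 (5.25%) in Boost-Chir, against 4.57% and 6.55%, and at 0 in both. Where it did so in Boost-Chir, the median fold enrichment was 4.49 in Low-Chir and 3.01 in Boost-Chir. Where it did so in Low-Chir, these were 3.35 and 4.94. The other 503 narrow loci had a median ratio of 0.955.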

How the data were processed

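H3K4me3 and H3K27me3 were each measured in 1 library per condition. The submitters' processing notes name cutadapt 1.6, BWA 0.7.12, Picard and the build hg19. The caller of the peaks is not given in the sources used here, nor is its threshold. Each antibody library had its own list, with the matching input as control, per the labels in the deposited peak names. The authors deposited for each peak a fold enrichment (a ratio), the −log10 of its p-value and of its q-value, a summit and a score. The score repeats −log10 q, times 10 and truncated, and was set aside. The 2 input libraries were not analysed here.

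On chromosomes 1 to 22, 42647 (Low-Chir) and 45390 (Boost-Chir) H3K4me3 peaks were used. Reads at a summit and its local background were solved from the authors' fold, taken as (reads + 1) over (background + 1), and p-value, taken as a Poisson tail. This returned −log10 p within 0.001 for 100% of peaks with whole reads. Relative depth is the ratio of the genome-wide backgrounds, 2.67 over 2.21 reads. Each locus takes, per condition, the peak with the highest −log10 p. With 1 library per group no test was run. Intervals cover counting error only and treat loci as independent.

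The narrow loci, lists and rules were chosen with earlier results of these data known. Named loci were the 8 with the highest fold (the lower of both conditions), 5 each with the highest and lowest ratio among the stronger loci, the 4 most isolated, the 3 with the greatest summit shift and 2 on each side of both limits. Planned gene context, motifs and sequences were not computed, since no hg19 genome or annotation was used here. The code was tested on simulated data. Python 3.11.15, numpy 2.4.6, scipy 1.17.1, pandas 2.3.3 and matplotlib 3.10.9 were used.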

Additional observations from a re-analysis of the deposited data

How the results depend on the processing

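No paired analysis was possible because every group holds 1 library, and for the same reason no replicate could be left out. Alternatives for gene context and motifs were not run. The limits on 1 list, the single-peak and low-background sets and the division by the all-loci median were chosen after seeing the data. The length limit moved most values. Under 750 bp there were 345 narrow loci, 13 of them at a ratio of at least 1.5, with median folds of 4.68 (Low-Chir) and 4.54 (Boost-Chir) and a summit distance of 72 bp. Under 1.5 kb there were 954 loci, with 57 at least 1.5 and 95 at most 1/1.5, and folds of 5.34 and 5.26. With the limit on Low-Chir peaks alone there were 1011 loci, a median ratio of 1.02, 53.1% above 1, 112 loci at 1.5 or more against 81 at 1/1.5 or less, folds of 5.15 and 5.45 and a summit distance of 98 bp, so the median ratio and the balance of loci past 1.5-fold turned round. With the limit on Boost-Chir peaks alone the summit distance was also 98 bp. Joining peaks within 1 kb gave folds of 4.67 and 4.54 and a gap to the next locus of 19.7 kb. The top 75% of H3K4me3 peaks gave 521 loci, folds of 5.34 and 5.32 and a summit distance of 73 bp. With the weakest peaks left out in this way, the median ratio was 0.968 and 45.1% were above 1. At 1.5 or more there were 24 loci and at 1/1.5 or less 41, against 25 and 61 in the main set. Of the 28 named narrow loci 16 remained. Division by the all-loci median gave a ratio of 0.878, 29.5% above 1, and 12 and 97 loci past 1.5-fold. The authors' folds, with no depth adjustment, gave a median ratio of 0.973 and 45.7% above 1. Depth limits single loci: at 17 and 19 reads only large differences exceed counting error.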
